A study of Mus musculus with 21 samples.

Results

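The Ifi200 genes are interferon-inducible genes that lie side by side on mouse chromosome 1. The family was taken as 9 listed genes (Ifi202b, Ifi203, Ifi204, Ifi205, Ifi207, Ifi209, Ifi211, Mndal and Aim2), matched by Ensembl ID to the symbols of GENCODE vM21 among the 55536 genes of the count table. Polyadenylated RNA was sequenced from primary mouse mammary organoids, cultured structures of mammary epithelium. One genotype was wild type (WT), the other homozygous for a hypomorphic allele of Mre11 (Mre11 ATLD1/ATLD1, here ATLD), and in both neuT, an activated rat form of the oncogene Erbb2, was switched on. RNA was taken on days 0, 14 and 28 of activation, in 3 replicates for each genotype and day, giving 6 groups and 18 libraries. For WT replicate 1 of every day a second run exists, made in the batch of the ATLD samples, so that 21 libraries enter the analysis. Mre11 is part of the complex that senses DNA double-strand breaks, and the allele is named after ataxia-telangiectasia-like disorder. The labels do not name the mouse strain or the promoter that drives neuT. Separate animals behind the replicates are not stated either, so p-values measure only the spread between these libraries, which may be technical.

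Most Ifi200 proteins join a pyrin domain, which binds other pyrin domains, to one or more HIN domains, which bind double-stranded DNA. AIM2 detects DNA in the cytosol and assembles the adaptor ASC (gene Pycard) and caspase-1 into an inflammasome. The Ifi204 protein, related to human IFI16, has been linked to the adaptor STING (Tmem173) and to induction of type I interferon by DNA. The Ifi202b protein has HIN domains without a pyrin domain and can hold back AIM2, and its level is known to differ between inbred mouse strains.

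The 9 genes span 681 kb of mm10 chromosome 1, from base 173350879 to base 174031810. Aim2 (ENSMUSG00000037860, 173350879 to 173466040, plus strand) lies at the end nearer the centromere. It is followed by Ifi209 (ENSMUSG00000043263, 173630917 to 173647928, plus strand), Ifi207 (ENSMUSG00000073490, 173723427 to 173741747) and Ifi204 (ENSMUSG00000073489, 173747293 to 173766943), the latter a pair on the minus strand. Mndal (ENSMUSG00000090272, 173849126 to 173942491), Ifi211 (ENSMUSG00000026536, 173896345 to 173913046) and Ifi203 (ENSMUSG00000039997, 173920407 to 173942672) come next, and Ifi202b (ENSMUSG00000026535, 173962568 to 173982744) and Ifi205 (ENSMUSG00000054203, 174011998 to 174031810) close the row, all on the minus strand. All 9 are protein-coding, and the counts refer to their exons.

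The interferon-stimulated response element (ISRE) is a DNA motif bound by interferon regulatory factors. RefSeq promoters of build GRCm38.p6, each 300 bases with 250 before and 50 after a transcript start, were available for 8 of the 9 members. The ISRE core GAAANNGAAA, searched on both strands, was found in a promoter of 5 members and in 3.44% of 32851 promoters of the same length. The windows below are shown because these promoters, of genes that are known to answer to interferon, carry the motif in surroundings that fall into 2 groups of related sequence. Each line gives 60 bases on the gene's own strand, 5′ to 3′, with the motif in capitals.
Ifi207 (chr1:173741816-173741875, minus strand): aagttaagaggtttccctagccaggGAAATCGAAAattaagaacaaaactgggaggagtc
Ifi211 (chr1:173913049-173913108, minus strand): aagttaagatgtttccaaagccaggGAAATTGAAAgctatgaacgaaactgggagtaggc
Ifi205 (chr1:174031855-174031914, minus strand): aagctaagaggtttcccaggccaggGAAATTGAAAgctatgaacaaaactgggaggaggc
Ifi203 (chr1:173942493-173942552, minus strand): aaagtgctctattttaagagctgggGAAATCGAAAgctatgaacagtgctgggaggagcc
Mndal (chr1:173880189-173880248, minus strand): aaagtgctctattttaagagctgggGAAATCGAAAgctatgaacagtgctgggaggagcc
The motif began at position -41 from the start in Ifi207, -37 in Ifi211, -134 in Ifi205, -35 in Ifi203 and -36 in Mndal. The windows of Ifi203 and Mndal had 60 of 60 bases in common. Those of Ifi211 and Ifi205 had 54 of 60 in common, those of Ifi207 and Ifi205 52, and those of Ifi207 and Ifi211 50. The 6 pairs that set Ifi203 or Mndal against Ifi207, Ifi211 or Ifi205 had 39 to 41 of 60 bases in common. An alternative start of Mndal and the first 50 bases of the Ifi205 transcript held a further match each. The promoter of another Ifi203 start, bases 173942623 to 173942922, held no match. The Ifi203 and Mndal windows printed above each lie within the annotated gene of that name. The Ifi202b, Aim2 and Ifi209 promoters held no match. The promoters of Ifi206, Ifi208, Ifi213 and Ifi214, genes of the cluster with almost no counts here, held 1 match each as well. A match of letters is a description and not evidence of binding.

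Related sequence limits how far reads can be told apart. Of the 50-base windows in its transcripts, Ifi211 shared 72.8% with another gene, mostly Ifi205 (44.7%). The share was 20.0% for Ifi204, 19.6% for Mndal, 18.6% for Ifi205, 12.2% for Ifi203, 7.3% for Ifi207 and 0.6% for Aim2. Ifi204 shared most with Ifi211 (14.8%), as did Ifi205 (18.5%) and Mndal (8.0%). Ifi202b shared none. Values of Ifi211 are therefore the least certain as those of one gene and values of Ifi202b and Aim2 the most certain. The library kit keeps the strand, but the strand setting of the counting is not given in the sources used here.

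Library depth ran from 30905703 to 51757203 counts. Mre11a, the mouse Mre11 gene, was at 43.3 to 58.6 CPM (counts per 1000000 counts, scaled by TMM) in the 9 original WT libraries and at 14.1 to 17.0 CPM in the 9 ATLD libraries. Epcam, a marker of epithelial cells, was at 561 to 689 CPM in the original WT libraries and at 972 to 1417.7 CPM in ATLD, and no marker of the mammary epithelium list was at 0 in any group. Of its 9 markers, 4 rose and 3 fell in WT at day 14, where 15.2% of all genes tested rose and 15.1% fell. The basal keratins Krt14 and Krt5 rose by 1.48 and 1.55 on the log2 scale, while the luminal keratins Krt18 and Krt19 changed by -1.40 and -2.06. At day 14 the ATLD minus WT difference was -2.01 for Krt14, -2.44 for the basal factor Trp63 and 1.78 for Krt18, all called. Markers of fibroblasts summed to 19.1 to 57.5 CPM in WT and 11.7 to 31.9 CPM in ATLD. Of 7 tested, 5 were lower in ATLD at day 0, where 29.5% of all genes tested were lower. Lyz2 of myeloid cells and Sftpc of lung epithelium were at 4.22 to 10.6 CPM in the original WT libraries, but at 0.0204 to 0.516 CPM in the second runs of WT replicate 1 and at 0 to 0.149 CPM in ATLD. Sftpd of the same lung list differed the other way, higher in ATLD by 2.17, 5.77 and 6.16 on the log2 scale at the 3 days, all called. The lung list summed to 9.03 to 18.8 CPM in the original WT libraries and 6.69 to 17.8 CPM in ATLD. Ptprc, the pan-leukocyte marker CD45, and Tyrobp were at 0 in the ATLD libraries and the second runs and at no more than 0.176 CPM in the original WT libraries. Of 12 myeloid markers only Cd14 was abundant. Its level was 126 to 161 CPM on day 0 and 18.1 to 27.3 CPM on day 28 in WT cultures, against 277 to 311 CPM and 780 to 882 CPM in ATLD cultures. The 12 markers summed to 20.2 to 168 CPM in WT and 280 to 885 CPM in ATLD, and in ATLD Ptprc, Itgam, Tyrobp, C1qa, C1qb and C1qc were at 0 in every library. The part of these cell types, and of basal and luminal cells, in the values of the family was not tested. In whole cultures, fewer cells of a type and less RNA per cell cannot be told apart.

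Ifi202b was the most abundant member per length in all 6 groups, at 8.51 ± 0.426 RPKM (CPM per kilobase of exon, mean ± SD, n = 3) in WT at day 0. This was more than 5 times the level of Ifi204, next at 1.56 ± 0.17 RPKM. Ifi211 was at 1.24 ± 0.171 RPKM, and its spread overlapped that of Ifi204. Ifi203 followed at 0.465 ± 0.13 RPKM, then Mndal at 0.252 ± 0.0555 RPKM and Ifi207 at 0.177 ± 0.0895 RPKM, whose spreads overlapped. Ifi205 at 0.0584 ± 0.0197 RPKM and Aim2 at 0.0324 ± 0.00624 RPKM were at the bottom among the 8 tested members.

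The order changed with genotype and day below the leading gene. In ATLD at day 28 Ifi202b was at 12.2 ± 1.13 RPKM, Ifi204 at 7.12 ± 0.829 RPKM and Ifi211 at 6.95 ± 1.04 RPKM, and the last pair did not differ beyond their spread. Ifi205 followed at 1.13 ± 0.229 RPKM, beside Ifi203 at 1.1 ± 0.249 RPKM, and Aim2 was lowest of the 8 tested members at 0.0214 ± 0.00737 RPKM. Ifi202b held 53.0% of the summed CPM of the members in WT at day 0, 71.1% at day 14 and 67.4% at day 28. In ATLD its share went from 51.4% at day 0 to 39.4% at day 14 and 27.9% at day 28, with no test run on it, while that of Ifi204 went from 17.5% to 34.2% between day 0 and day 28.

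**Figure D1:**
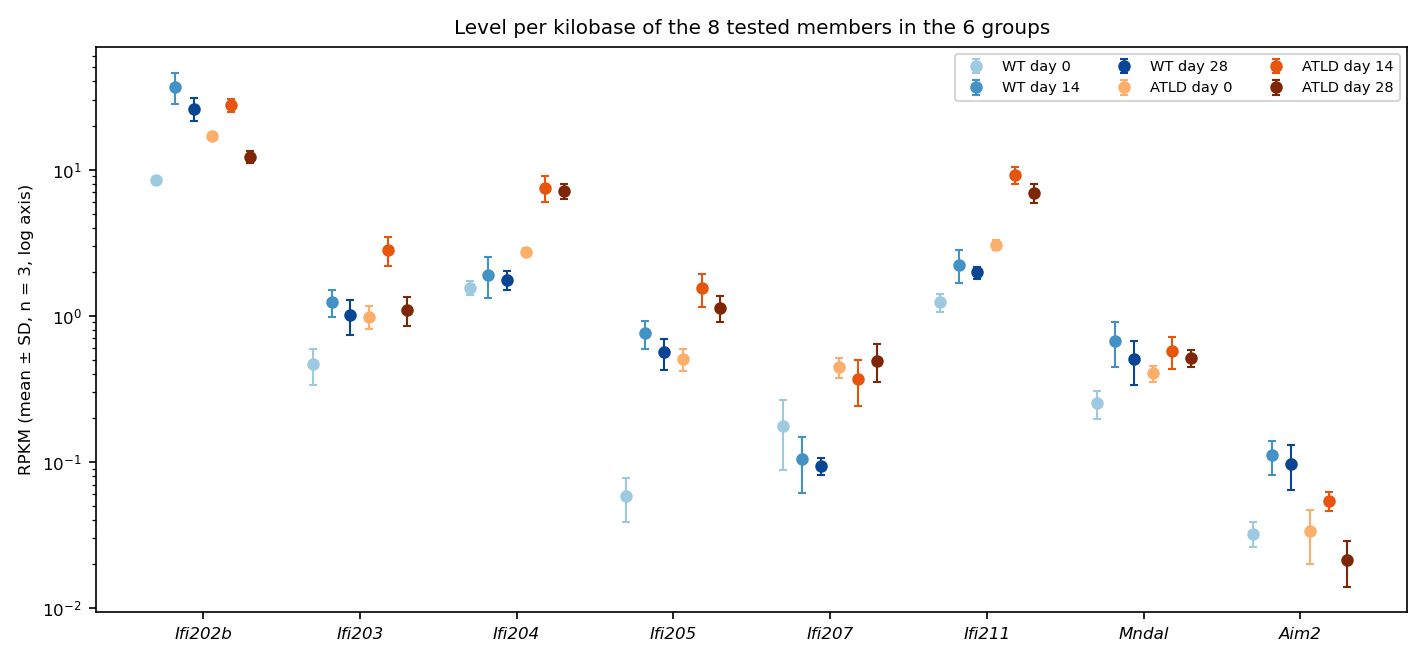
Level of the 8 tested members per kilobase of exon (RPKM, log axis) in the 6 genotype and day groups, as the mean with the SD of 3 original libraries. Ifi202b is highest in every group, from 8.51 RPKM in WT at day 0 to 36.9 RPKM in WT at day 14, and Ifi205 in WT at day 0 is far below its other groups.

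The comparisons ask how the family differed with time after neuT was switched on, with genotype at each day, and whether its change with time differed between the genotypes. Adjusted p-values are from edgeR's quasi-likelihood F test with Benjamini-Hochberg adjustment over all genes tested, and a gene was called at an adjusted p under 0.05. Of the 9 members 8 passed the filter on low counts, and Ifi209 was not tested. Cultures of 14 or 28 days with neuT left off are not among the samples, so neuT and time in culture cannot be told apart in any comparison of days.

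Most members rose with time in WT. At day 14 against day 0, 6 of 8 were called higher and 0 lower, where 15.2% of all genes tested were called higher. At day 28 against day 0 the count was again 6 of 8 higher and 0 lower, against 12.3% of all genes higher. The median log2 change of the 8 was 1.41 at day 14 and 1.04 at day 28, and that of all genes tested was 0.01 and 0.02. Between day 14 and day 28 edgeR called 0 of the 8, where 0.905% of all genes were called in either direction. Ifi202b alone had an unadjusted p under 0.05 there, and DESeq2 called 0 as well.

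In ATLD the rise was smaller in number at day 28. At day 14 against day 0, 5 of 8 were called higher and 0 lower, where 5.18% of all genes were called higher. At day 28 against day 0, 3 of 8 were higher (14.1% of all genes) and 1 was lower (15.7% of all genes). From day 14 to day 28, 2 of 8 fell, Ifi202b and Ifi203, where 9.05% of all genes fell, and 0 rose. In edgeR 4 of the 8 had an unadjusted p under 0.05 there, and DESeq2 called 2. The medians of the 8 were 1.08, 0.26 and -0.42 on the log2 scale in these comparisons, and those of all genes tested were -0.03, -0.02 and 0.

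The genotypes differed from the start. Strain is not named in the labels, and the Mre11 allele and any other difference between the colonies, in the cluster's own haplotype included, cannot be told apart. At day 0, 7 of 8 members were called higher in ATLD than in WT and 0 lower, where 26.1% of all genes were higher. At day 14, 5 of 8 were higher and 0 lower, against 30.1% of all genes higher. At day 28, 4 of 8 were higher (29.3% of all genes) and 2 were lower (34.9% of all genes). These tests used all 21 libraries with a term for the sequencing batch, which rests on 3 WT cultures that have a run in each batch. The fit had no term for the culture, so a second run was set against all original WT libraries of its day. Each second run was counted as an independent library, which it is not, so the p-values of these tests may be too small. By edgeR the batch term was called for 0 of the 8 members, with values from -0.35 (Ifi205) to 0.09 (Ifi207) on the log2 scale. The share of all genes called for it is not reported here. With 3 such cultures, a lack of calls does not show that the members are free of a batch effect. Ifi202b alone had an unadjusted p under 0.05 for the batch term, with -0.33 on the log2 scale (adjusted p = 0.161 by edgeR). No other tool was run for this term.

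The change since day 0 itself differed between the genotypes for 4 members at each later day. At day 14 the change was larger in ATLD for Ifi204 and Ifi211 (10.8% of all genes) and smaller for Ifi202b and Ifi205 (10.6% of all genes). At day 28 it was larger in ATLD for Ifi204 (13.5% of all genes) and smaller for Ifi202b, Ifi205 and Aim2 (14% of all genes). These tests share their day 0 libraries with the comparisons of days.

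**Figure D2:**
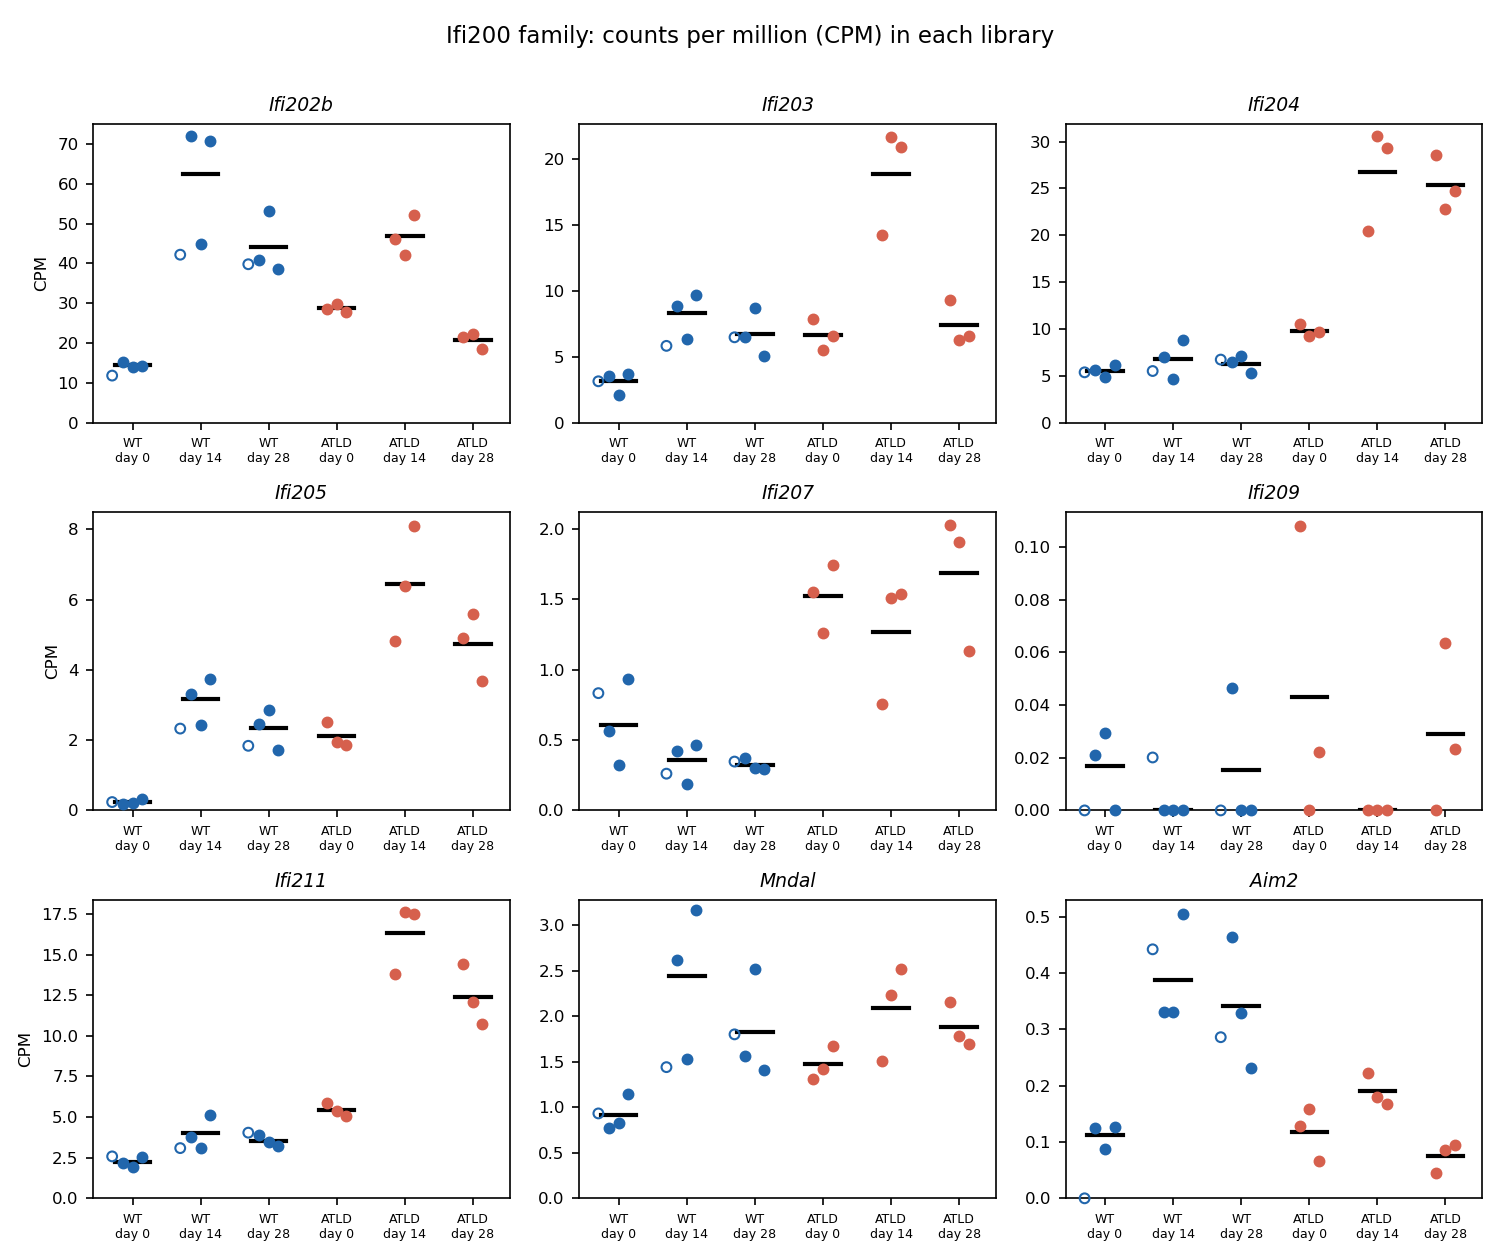
CPM of each of the 9 members in each library (linear axes that start at 0, a panel per gene). Filled points are the 3 original libraries of a group (WT blue, ATLD red), bars their mean, and open points the second run of WT replicate 1. Ifi204, Ifi205, Ifi207 and Ifi211 are higher in each ATLD library than in any WT library of that day, while Aim2 is lower in ATLD than in WT at day 14 and day 28.

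Aim2, the cytosolic DNA sensor, was called higher at both later days in WT and at neither in ATLD, and its counts were low. In WT it was at 0.125, 0.0882 and 0.127 CPM at day 0, at 0.330, 0.330 and 0.505 CPM at day 14 and at 0.464, 0.329 and 0.232 CPM at day 28. In ATLD it was at 0.129, 0.158 and 0.0660 CPM at day 0, at 0.222, 0.180 and 0.168 CPM at day 14 and at 0.0455, 0.0849 and 0.0941 CPM at day 28. Every WT library of day 14 and day 28 was above every WT library of day 0, and above every ATLD library of any day. These values rest on 3 to 24 counts a library in WT and 2 to 10 in ATLD. The log2 change in WT was 1.72 ± 0.37 (SE) at day 14 and 1.53 ± 0.38 at day 28 (adjusted p = 0.0014 and 0.00529). In ATLD it was 0.68 ± 0.41 at day 14 and -0.63 ± 0.50 at day 28 (adjusted p = 0.386 and 0.412), neither past the test. From day 14 to day 28 in ATLD it was -1.31 ± 0.45 (adjusted p = 0.0509). With median-of-ratios scaling that change was -1.34 and was called (adjusted p = 0.0486).

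The ATLD minus WT difference of Aim2 was 0.71 ± 0.64 at day 0 and -0.84 ± 0.48 at day 14, neither called (adjusted p = 0.342 and 0.128), and -1.85 ± 0.58 at day 28 (adjusted p = 0.0084). Without WT day 28 replicate 1 the difference at day 28 was -1.49 (adjusted p = 0.111). The change to day 28 differed between genotypes by -2.16 ± 0.63 (adjusted p = 0.0137), and by -1.91 without ATLD day 0 replicate 2 (adjusted p = 0.0608). With the original libraries alone and no batch term the difference at day 14 was -1.02 (adjusted p = 0.0111). The second run of WT day 0 replicate 1 held 0 Aim2 counts, which allows up to 0.0595 CPM in that run, so no value is given for day 0 from the second batch alone.

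Ifi202b, whose product can hold back AIM2, had more counts than any other member in 5 of the 6 groups, and fewer than Ifi204 in ATLD at day 28. The WT libraries gave 15.3, 13.9 and 14.1 CPM at day 0, 72.1, 44.9 and 70.7 CPM at day 14 and 40.8, 53.1 and 38.6 CPM at day 28. The ATLD libraries gave 28.5, 29.7 and 27.9 CPM at day 0, 46.1, 42.2 and 52.1 CPM at day 14 and 21.4, 22.2 and 18.6 CPM at day 28. ATLD cultures thus started above all WT cultures, met them at day 14 and ended below all of them. In WT the log2 change was 2.12 ± 0.17 at day 14 and 1.61 ± 0.16 at day 28 (adjusted p = 2.45e-08 and 7.76e-07). From day 14 to day 28 in WT it was -0.50 ± 0.16 (adjusted p = 0.226), and -0.69 without WT day 14 replicate 2 (adjusted p = 0.00658).

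In ATLD Ifi202b rose by 0.71 ± 0.16 to day 14 (adjusted p = 0.00643) and fell by 1.17 ± 0.16 from day 14 to day 28 (adjusted p = 9.09e-05). Day 28 against day 0 in ATLD gave -0.47 ± 0.16 (adjusted p = 0.0357), a call that was lost in each of the 6 fits that left out a library of either day, with values from -0.52 to -0.4 (adjusted p from 0.0523 to 0.121). The ATLD minus WT difference went from 1.31 ± 0.18 at day 0 to -0.03 ± 0.18 at day 14 and -0.81 ± 0.17 at day 28 (adjusted p = 9.9e-06, 0.881 and 0.000535). At day 14 it was -0.42 with the original libraries alone and no batch term (adjusted p = 0.0255). The change since day 0 in ATLD minus that in WT was -1.41 ± 0.23 for day 14 and -2.08 ± 0.23 for day 28 (adjusted p = 0.00016 and 2.1e-06).

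The WT level of Ifi202b at day 14 moved with the library. The second run of WT replicate 1 gave 11.8 CPM at day 0, 42.2 CPM at day 14 and 39.8 CPM at day 28, so the day 14 run differed from its original by -0.77 on the log2 scale. The original WT day 14 replicates 1 and 3 and day 28 replicate 2 had the fewest counts of GC-rich genes, with a log2 difference of GC-rich minus GC-poor genes, each relative to its own mean, of -1.07, -1.04 and -0.82. The other libraries lay between -0.46 and 0.66. The exons of the members hold 37.1% to 43.9% GC, below the median of 49.7% of genes with at least 10 counts in 3 or more original libraries. These 3 libraries held the highest Ifi202b, Ifi203, Ifi204, Ifi205 and Mndal levels among the original WT libraries of their day.

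Leaving these 3 libraries out, a choice made after the data were seen, left 1 library for WT day 14, which was taken to vary like the other groups. A count of calls is therefore not given for that day. The log2 change at WT day 14 was then 1.60 for Ifi202b, 0.97 for Ifi203 and 3.24 for Ifi205. It was 0.44 for Ifi211, 0.70 for Mndal and 1.45 for Aim2. Each of these values was below that with all original libraries. At day 28 Mndal was at 0.66 (adjusted p = 0.0583) and the other 5 calls held. The genotype by time difference of Ifi202b without these libraries was -0.87 at day 14 and -1.90 at day 28. With an offset for GC content in all libraries, the 6 members called at WT day 14 were called again, Ifi202b at 1.90.

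Ifi204, the STING-linked sensor, was not called in any comparison of WT days and rose in ATLD. Its WT level was 5.61, 4.91 and 6.12 CPM at day 0, 6.98, 4.60 and 8.84 CPM at day 14 and 6.45, 7.10 and 5.26 CPM at day 28. Its ATLD level was 10.5, 9.23 and 9.71 CPM at day 0, 20.5, 30.6 and 29.3 CPM at day 14 and 28.6, 22.8 and 24.7 CPM at day 28. The WT days overlapped, and the lowest ATLD library was above the highest WT library of any day. The log2 change in WT was 0.30 ± 0.21 at day 14 and 0.17 ± 0.21 at day 28 (adjusted p = 0.309 and 0.641). Without WT day 14 replicate 2 the former was 0.51 (adjusted p = 0.0308).

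In ATLD Ifi204 rose by 1.45 ± 0.20 to day 14 and by 1.37 ± 0.20 to day 28 (adjusted p = 0.000101 and 5.84e-05). Ifi204 was higher in ATLD by 0.89 ± 0.22 at day 0, by 2.11 ± 0.23 at day 14 and by 2.05 ± 0.22 at day 28 (adjusted p = 0.00234, 2.04e-07 and 2.33e-07). The change since day 0 was larger in ATLD by 1.16 ± 0.29 at day 14 and by 1.20 ± 0.29 at day 28 (adjusted p = 0.00661 and 0.00412). The second runs of the WT cultures gave 5.36, 5.50 and 6.72 CPM at the 3 days, also below every ATLD library.

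Ifi207, reported to bind and stabilise STING, separated the genotypes at every day and was the 1 tested member with no call in any comparison of days. The WT libraries gave 0.563, 0.324 and 0.932 CPM at day 0, 0.422, 0.189 and 0.463 CPM at day 14 and 0.371, 0.301 and 0.296 CPM at day 28. The ATLD libraries gave 1.55, 1.26 and 1.74 CPM at day 0, 0.754, 1.51 and 1.54 CPM at day 14 and 2.03, 1.91 and 1.13 CPM at day 28. Within a genotype the days overlapped, and on each day all ATLD libraries were above all WT libraries. On the log2 scale ATLD exceeded WT by 1.10 ± 0.39 at day 0, by 1.83 ± 0.43 at day 14 and by 2.28 ± 0.42 at day 28 (adjusted p = 0.0234, 0.00105 and 0.000108). The call at day 0 was lost without WT replicate 1 (1.39, adjusted p = 0.0857) or ATLD replicate 3 (0.99, adjusted p = 0.0656). With the second batch alone, which holds 1 WT library of that day, the day 0 difference was 0.91.

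In WT the log2 change of Ifi207 was -0.77 ± 0.41 at day 14 and -0.94 ± 0.43 at day 28 (adjusted p = 0.175 and 0.13). With the second runs of WT replicate 1 in place of the originals it was -1.21 and -1.17, both called (adjusted p = 0.0373 and 0.0499). In ATLD it was -0.26 ± 0.33 at day 14 and 0.16 ± 0.32 at day 28 (adjusted p = 0.726 and 0.753). The change since day 0 did not differ between genotypes past the test (adjusted p = 0.571 at day 14 and 0.147 at day 28).

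Ifi205, whose product has been reported to act on Asc expression in macrophages, showed the steepest rise in WT. In WT it was at 0.188, 0.206 and 0.339 CPM at day 0, or 9, 7 and 16 counts, at 3.32, 2.43 and 3.75 CPM at day 14 and at 2.46, 2.85 and 1.73 CPM at day 28. In ATLD it was at 2.52, 1.94 and 1.87 CPM at day 0, at 4.83, 6.40 and 8.11 CPM at day 14 and at 4.91, 5.58 and 3.69 CPM at day 28. WT cultures at day 0 were far below all others, and ATLD cultures at day 0 stood where WT cultures stood at day 28. The WT rise was 3.67 ± 0.32 to day 14 and 3.23 ± 0.33 to day 28 on the log2 scale (adjusted p = 8.42e-08 and 6.52e-07). The ATLD rise was 1.61 ± 0.24 and 1.17 ± 0.24 (adjusted p = 0.000224 and 0.00155).

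The genotype difference of Ifi205 was correspondingly largest at day 0, at 3.35 ± 0.33, and stood at 1.39 ± 0.27 at day 14 and 1.37 ± 0.27 at day 28 (adjusted p = 1.99e-07, 0.000205 and 0.000267). Its change since day 0 in ATLD minus that in WT was -2.06 ± 0.41 for day 14 and -2.06 ± 0.42 for day 28 (adjusted p = 0.00113 and 0.000992). The second run of WT day 0 replicate 1 gave 0.238 CPM, within the range of the original libraries.

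Ifi203 rose to day 14 in both genotypes and then fell in ATLD. Its WT level was 3.52, 2.12 and 3.71 CPM at day 0, 8.85, 6.34 and 9.68 CPM at day 14 and 6.52, 8.66 and 5.05 CPM at day 28. Its ATLD level was 7.83, 5.48 and 6.56 CPM at day 0, 14.2, 21.7 and 20.9 CPM at day 14 and 9.33, 6.30 and 6.59 CPM at day 28. All ATLD libraries of day 14 were above all other libraries, and at day 28 the genotypes overlapped. The log2 change in WT was 1.40 ± 0.26 at day 14 and 1.10 ± 0.26 at day 28 (adjusted p = 0.000447 and 0.00417). In ATLD it was 1.51 ± 0.25 at day 14 (adjusted p = 0.00052), 0.16 ± 0.25 at day 28 (adjusted p = 0.67) and -1.35 ± 0.25 from day 14 to day 28 (adjusted p = 0.00119).

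Against WT, Ifi203 in ATLD was higher by 1.22 ± 0.28 at day 0 and 1.45 ± 0.28 at day 14, and 0.29 ± 0.27 at day 28 was not called (adjusted p = 0.00133, 0.000185 and 0.359). The change to day 28 differed by -0.94 ± 0.36 (adjusted p = 0.0651). This value was called without WT day 28 replicate 3 (-1.12, adjusted p = 0.0338), without ATLD day 28 replicate 1 (-1.14, adjusted p = 0.0348) and with no filter on low counts (-0.93, adjusted p = 0.0349).

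Ifi211, the member with the most shared sequence, some of it shared with Ifi204, followed Ifi204 closely. The WT libraries gave 2.15, 1.94 and 2.54 CPM at day 0, 3.78, 3.09 and 5.11 CPM at day 14 and 3.90, 3.48 and 3.25 CPM at day 28. The ATLD libraries gave 5.89, 5.39 and 5.08 CPM at day 0, 13.8, 17.6 and 17.5 CPM at day 14 and 14.4, 12.1 and 10.7 CPM at day 28. The later days were above day 0 in both genotypes, with no overlap, and each ATLD day was above the same WT day. In WT the log2 change was 0.85 ± 0.19 at day 14 and 0.68 ± 0.19 at day 28 (adjusted p = 0.00182 and 0.012). The latter call was lost without WT day 0 replicate 2 (0.59, adjusted p = 0.0586) or WT day 28 replicate 1 (0.61, adjusted p = 0.0528).

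In ATLD Ifi211 rose by 1.58 ± 0.17 to day 14 and by 1.19 ± 0.17 to day 28 (adjusted p = 1.07e-05 and 5.84e-05). Ifi211 was higher in ATLD by 1.23 ± 0.21 at day 0, by 2.10 ± 0.21 at day 14 and by 1.74 ± 0.21 at day 28 (adjusted p = 8.21e-05, 8.55e-08 and 6.69e-07). The larger change in ATLD at day 14, 0.73 ± 0.25 (adjusted p = 0.0488), was at the edge of the threshold. It was lost in 10 of the 12 fits that left out a library, with values from 0.57 to 0.94 (adjusted p from 0.00825 to 0.154), all but those without WT day 14 replicate 3 or ATLD day 14 replicate 1.

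Mndal, named for its likeness to the human gene MNDA, rose in WT and showed little difference between the genotypes after day 0. In WT it was at 0.772, 0.824 and 1.14 CPM at day 0, at 2.62, 1.53 and 3.16 CPM at day 14 and at 1.56, 2.52 and 1.41 CPM at day 28. In ATLD it was at 1.31, 1.42 and 1.67 CPM at day 0, at 1.51, 2.23 and 2.52 CPM at day 14 and at 2.16, 1.78 and 1.69 CPM at day 28. WT libraries of day 0 were below all others, and the genotypes overlapped at both later days. The log2 change in WT was 1.41 ± 0.29 at day 14 and 0.98 ± 0.30 at day 28 (adjusted p = 0.00105 and 0.0196). The latter call was lost without WT day 0 replicate 1 (0.87, adjusted p = 0.0879), WT day 0 replicate 2 (0.92, adjusted p = 0.0684) or WT day 28 replicate 2 (0.69, adjusted p = 0.108).

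In ATLD the change of Mndal was 0.50 ± 0.28 at day 14 and 0.36 ± 0.28 at day 28, neither called (adjusted p = 0.313 and 0.366). At day 0 it was higher in ATLD by 0.86 ± 0.33 (adjusted p = 0.032). This call was lost without 4 of the 6 day 0 libraries, WT replicates 1 and 2 and ATLD replicates 2 and 3, with values from 0.76 to 0.93 over the 6 fits (adjusted p up to 0.115). It was also lost with the original libraries alone and no batch term (0.68, adjusted p = 0.0578). With the second batch alone, which holds 1 WT library of that day, the day 0 difference was 0.70. At day 14 and day 28 the difference was 0.13 ± 0.32 and 0.24 ± 0.31 (adjusted p = 0.726 and 0.51). The change to day 14 differed between genotypes by -0.91 ± 0.40 (adjusted p = 0.127), and by -1.15 without WT day 14 replicate 2 (adjusted p = 0.0218). Mndal shares 37 exonic bases with Ifi203 and 118 with the predicted gene Gm38050, on the same strand.

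**Figure D3:**
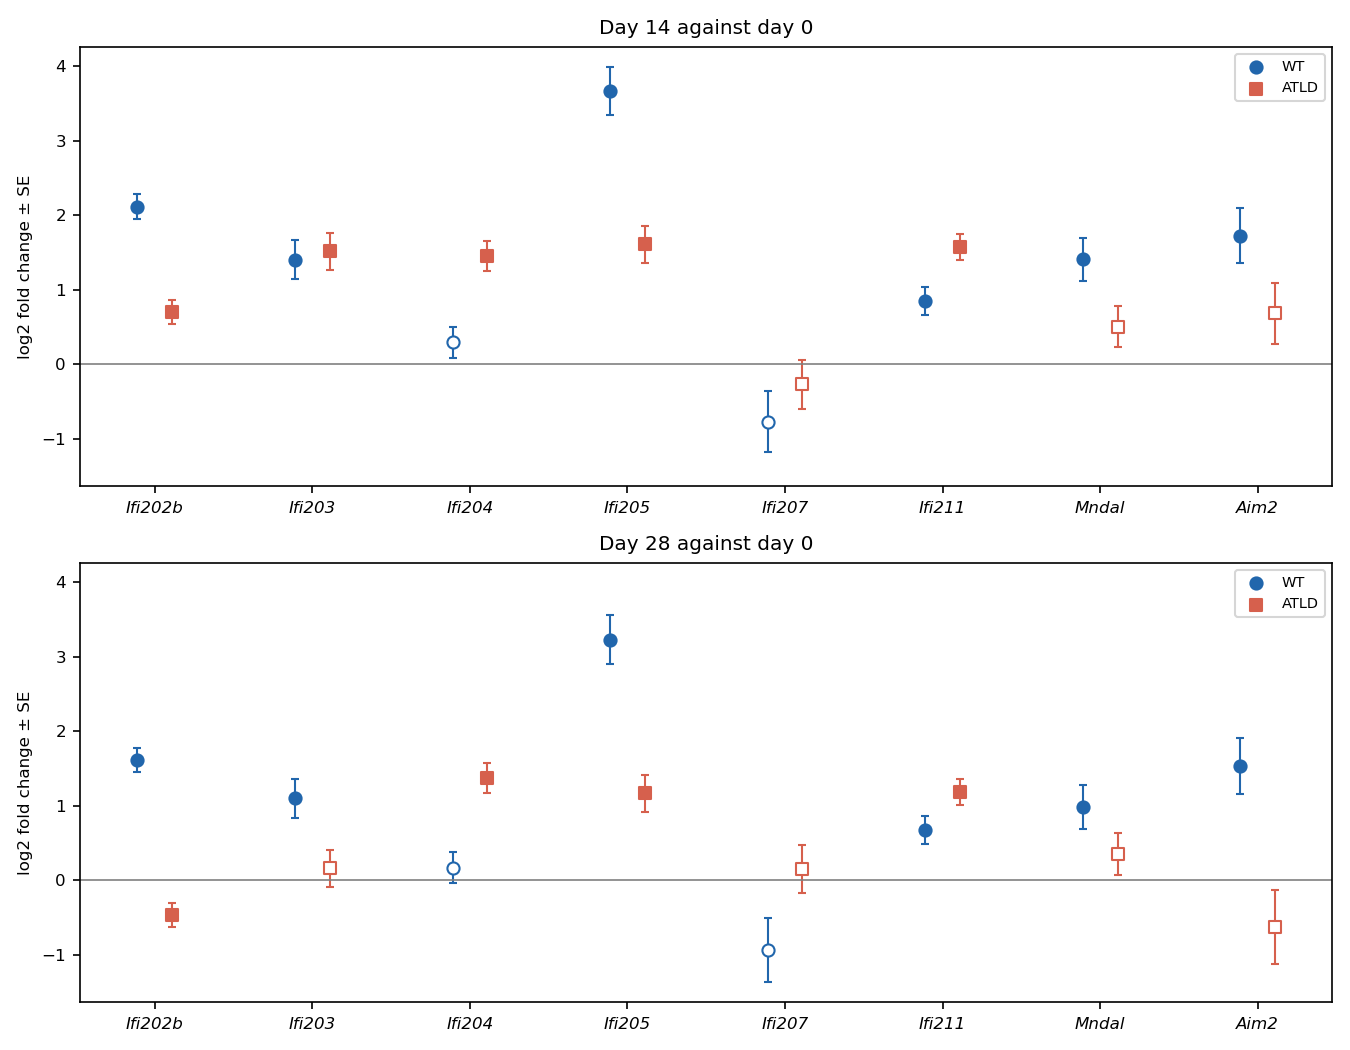
Log2 fold change since day 0 with its SE, at day 14 (upper panel) and day 28 (lower panel), for the 8 tested members in WT (circles) and ATLD (squares). Filled symbols were called and open symbols were not. Ifi202b, Ifi205 and Aim2 lie higher in WT than in ATLD at both days, and Ifi204 and Ifi211 lie higher in ATLD.

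**Figure D4:**
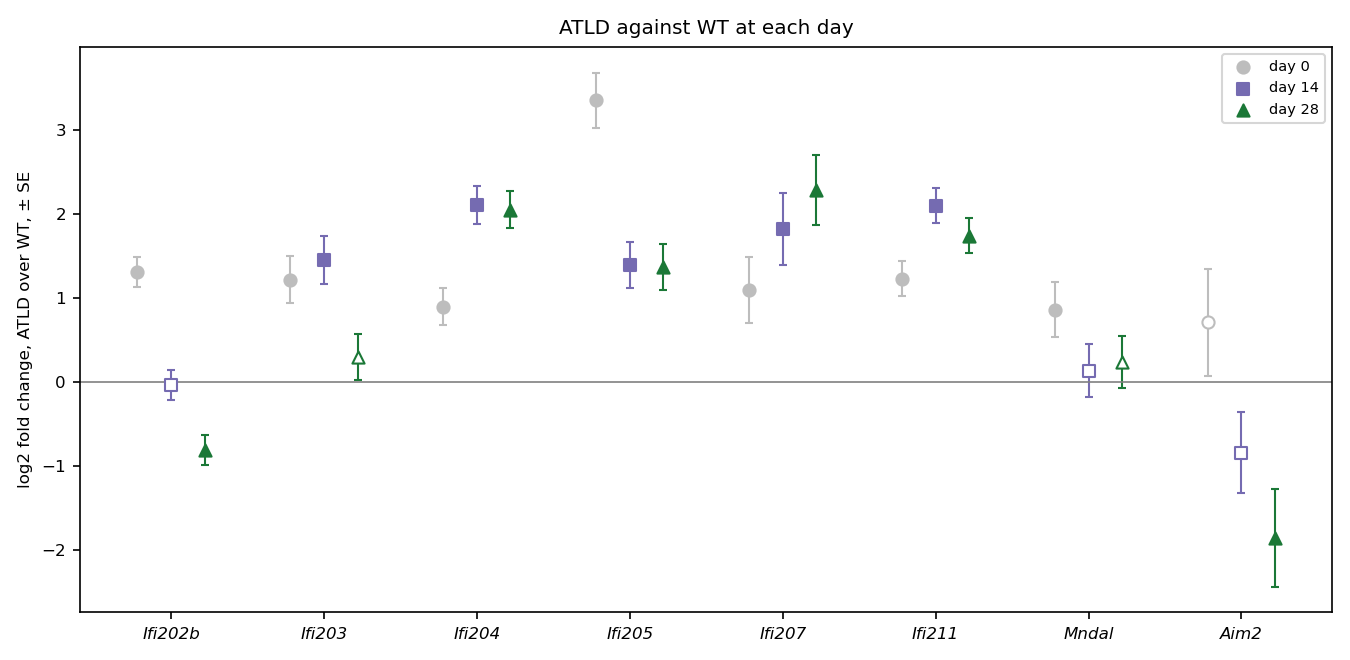
ATLD minus WT log2 difference with its SE at day 0 (circles), day 14 (squares) and day 28 (triangles) for the 8 tested members, from the fit of 21 libraries with a batch term. Filled symbols were called. Ifi204, Ifi205, Ifi207 and Ifi211 lie above 0 at all 3 days, whereas Ifi202b goes from 1.31 at day 0 to -0.81 at day 28.

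Ifi209 had counts in 8 of 21 libraries, 15 in all and at most 5 in a library. All 3 original libraries of day 14 in WT and all 3 in ATLD held 0 counts, which allows a level of up to 0.0208 CPM in WT and 0.0229 CPM in ATLD. Intervals and limits of this kind cover counting error only. Of its 50-base windows 33.7% were shared, mostly with Ifi214 of the same cluster, so even these few counts are uncertain as counts of Ifi209.

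Other genes of the cluster were at or near 0, with 1 exception. Ifi206, Ifi208, Ifi213 and Ifi214 had at most 3 counts in any original library. The pseudogene Ifi203-ps (ENSMUSG00000090222, 173776529 to 173798270, minus strand), which lies between Ifi204 and Mndal, had 18, 11 and 11 counts in WT at day 0, 102, 54 and 70 at day 14 and 42, 43 and 42 at day 28. In ATLD it had 5, 0 and 1 counts at day 0, 0, 4 and 2 at day 14 and 0, 2 and 0 at day 28. The WT second runs, made together with the ATLD libraries, had 24, 53 and 20 counts. All WT libraries, second runs included, had more counts of it than any ATLD library. Ifi203, with which it shares 8.8% of that gene's 50-base windows, was higher in ATLD at day 0 and day 14. The pseudogene was called lower in ATLD at day 0, day 14 and day 28 (adjusted p = 0.00596, 8e-06 and 2.57e-05). In WT it was called higher at day 14 and day 28 than at day 0 (adjusted p = 0.000187 and 0.00459). Whether WT and ATLD cultures carry the same haplotype of this cluster was not tested, which bears on every ATLD against WT value of the family.

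Profiles over the 6 groups were compared by the root mean square difference of their log2 group means, each gene centred on its own mean. Among the 8 members the closest pair was Ifi204 and Ifi211 at 0.21, followed by Ifi202b and Aim2 at 0.39 and Ifi202b and Mndal at 0.43. Ifi204 shares 14.8% of its 50-base windows with Ifi211, so reads of this closest pair may not be fully told apart. Ifi207 and Aim2 were farthest apart at 1.5. Among 11515 other genes, the 3 nearest to Ifi202b were Fam162a (0.16), Stab1 (0.23) and Fbxl2 (0.24), and those nearest to Ifi203 were Xaf1 (0.19), itself an interferon-stimulated gene, Papss2 (0.30) and Serpinb5 (0.31). Ephx2, Lyrm4 and Abcg1 were nearest to Ifi204 (0.17 to 0.20), and Lyrm4 (0.14), Ephx2 (0.26) and the RNA helicase gene Dhx58 (0.27) to Ifi211. Ifi205 had no close neighbour, with Timp1 at 0.44, Apol9b at 0.67 and Fndc1 at 0.69. Micall2, Limd2 and Mcrip2 were nearest to Ifi207 (0.15 to 0.16), Glrx, Bnip3l and Clybl to Mndal (0.09 to 0.12), and Cav2, Plek2 and Btbd11 to Aim2 (0.17 to 0.18). These are descriptions of 6 points each.

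Partners of AIM2 were present in both genotypes. Pycard, the adaptor ASC, ranged from 15.8 to 18.7 CPM over WT cultures and from 28.0 to 46.7 CPM over ATLD cultures. It was higher in ATLD at day 0, day 14 and day 28 by 1.02 ± 0.16, 1.06 ± 0.16 and 0.71 ± 0.16 (adjusted p = 3.95e-05, 1.29e-05 and 0.000667). Casp1, caspase-1, was at 52.0 to 126 CPM in WT over the 3 days. It rose by 1.03 ± 0.17 to day 14 and 0.83 ± 0.17 to day 28 (adjusted p = 0.000135 and 0.00107). In ATLD Casp1 ranged from 62.5 to 114 CPM, and its changes, 0.40 ± 0.17 and 0.01 ± 0.17, were not called (adjusted p = 0.16 and 0.974). Gsdmd, the pore protein of pyroptosis, rose in WT by 1.78 ± 0.20 to day 14 and 2.16 ± 0.20 to day 28 (adjusted p = 2.43e-06 and 2.9e-07). Its ATLD minus WT difference on the log2 scale was -0.82 ± 0.24 on day 0, -3.28 ± 0.24 on day 14 and -2.96 ± 0.23 on day 28 (adjusted p = 0.00726, 8.4e-10 and 2.4e-09).

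Of 11 tested genes of the AIM2 inflammasome and of pyroptosis, 3 rose and 2 fell in WT at day 14 and again at day 28. Of all genes tested 15.2% rose and 15.1% fell at day 14, and 12.3% rose and 12.4% fell at day 28. Casp4, the sensor of the non-canonical inflammasome, was the other riser, at 1.27 ± 0.19 and 1.01 ± 0.18 (adjusted p = 3.97e-05 and 0.000465). Naip2 fell by 1.94 ± 0.26 and 1.29 ± 0.25, and Il18, the cytokine that caspase-1 matures, changed by -1.2 ± 0.26 and -1.5 ± 0.27. In ATLD edgeR called 0 of the 11 in each comparison of days, with 4, 3 and 5 at an unadjusted p under 0.05 for day 14 against day 0, day 28 against day 0 and day 28 against day 14. DESeq2 called 0, 0 and 1. Between the genotypes 5 were higher and 3 lower in ATLD at day 0, 4 higher and 1 lower at day 14, and 3 higher and 3 lower at day 28. The shares of all genes were 26.1% higher and 29.5% lower at day 0, 30.1% and 35% at day 14, and 29.3% and 34.9% at day 28. At day 14 Naip2 and Naip5, sensors of bacterial proteins, were higher in ATLD by 2.25 ± 0.26 and 1.74 ± 0.50 (adjusted p = 6.25e-07 and 0.00456).

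Of 18 tested genes of cytosolic nucleic acid sensing, 10 were higher in ATLD than in WT and 1 lower at day 0, 11 and 1 at day 14, and 11 and 2 at day 28, beside the same shares of all genes (26.1%, 30.1% and 29.3% higher). With time, 2 rose in WT at day 14 and 3 at day 28, and 0 fell, counts near the 15.2% and 12.3% of all genes that rose. In ATLD 6 rose and 0 fell at day 14, where 5.18% of all genes rose, and 6 rose and 3 fell at day 28, where 14.1% rose and 15.7% fell. The RNA helicase gene Dhx58 was higher in ATLD by 1.19 ± 0.22 at day 0 and by 1.98 ± 0.22 at day 14, and the kinase gene Ikbke was at -1.19 ± 0.14 at day 14 (adjusted p = 0.000186, 3.52e-07 and 8.42e-07). Irf7, a transcription factor that drives interferon genes, ranged from 15.1 to 40.2 CPM over WT cultures and from 102 to 304 CPM over ATLD cultures, a log2 difference of 2.04 ± 0.30 at day 0, 3.24 ± 0.30 at day 14 and 2.13 ± 0.29 at day 28 (adjusted p = 1.87e-05, 3.39e-08 and 4.52e-06). Cgas, the enzyme that makes the STING ligand, fell in ATLD by 1.64 ± 0.16 to day 28 (adjusted p = 5.03e-07). Tmem173 rose there by 0.94 ± 0.10 (adjusted p = 1.33e-06).

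The interferon gene Ifnb1 was near the detection limit, with 0 to 4 counts a library in WT and 0 to 2 in ATLD, and was not tested. Irf9, an interferon regulatory factor that acts downstream of the interferon receptors, was higher in ATLD at each day. It was at 58.7 to 102 CPM in WT and 107 to 179 CPM in ATLD, with log2 differences of 0.79 ± 0.10, 0.86 ± 0.10 and 0.54 ± 0.10 at the 3 days (adjusted p = 6.45e-06, 1.1e-06 and 0.000181). Irf9 also rose with time, in WT by 0.53 ± 0.10 to day 14 and 0.58 ± 0.10 to day 28 (adjusted p = 0.000443 and 0.000186), and in ATLD by 0.58 ± 0.10 and 0.37 ± 0.10 (adjusted p = 0.000569 and 0.00885). Of the 18 tested ligands, receptors and transducers of interferon, 8 were higher in ATLD and 2 lower at day 0, 8 and 5 at day 14, and 9 and 3 at day 28. All genes gave 26.1% higher and 29.5% lower, 30.1% and 35%, and 29.3% and 34.9%. Usp18, an inhibitor of interferon receptor signalling, led at day 0 with 2.45 ± 0.32 (adjusted p = 6.24e-06). Ifnlr1, a receptor chain for interferon lambda, was at -0.97 ± 0.13 and Socs3, an inhibitor of cytokine signalling, at -0.84 ± 0.20 (adjusted p = 8.97e-06 and 0.00178). Il10rb, the other receptor chain for interferon lambda, was higher in ATLD by 2.55 ± 0.10 at day 14 and 2.22 ± 0.10 at day 28 (adjusted p = 1.09e-13 and 6.65e-13).

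Interferon-stimulated genes outside the cluster were mostly higher in ATLD than in WT, and many of them fell in ATLD between day 14 and day 28. Of 39 tested, 34 were higher and 0 lower in ATLD at day 0, 33 and 1 at day 14, and 24 and 5 at day 28, with median log2 differences of 1.26, 1.73 and 0.86, where all genes gave 26.1%, 30.1% and 29.3% higher. The family's medians in the same comparisons were 1.16, 1.42 and 0.83. At day 0 the largest differences were those of Ifi27l2a at 3.87 ± 0.47 and Ifit3 at 3.05 ± 0.45 (adjusted p = 2.39e-06 and 2.05e-05). In WT 16 of the 39 rose and 6 fell at day 14, and 20 rose and 4 fell at day 28, where all genes gave 15.2% and 15.1%, then 12.3% and 12.4%. In ATLD 16 rose and 0 fell at day 14 (5.18% of all genes rose). At day 28 against day 0 in ATLD 3 rose and 10 fell (14.1% and 15.7% of all genes), and from day 14 to day 28 0 rose and 20 fell (9.05% of all genes fell). Oas3 and Oasl1 of the antiviral OAS family moved in opposite directions in WT at day 14, at 1.73 ± 0.39 and -2.09 ± 0.27 (adjusted p = 0.0026 and 1.05e-05). Mx1, an antiviral GTPase, fell in ATLD by 1.36 ± 0.28 to day 28 (adjusted p = 0.00142) and Ifit3 by 1.32 ± 0.37 (adjusted p = 0.0116), where Ifi204, Ifi205 and Ifi211 were above day 0.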

How the data were processed

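Per the labels' protocols, polyadenylated RNA was prepared with a stranded TruSeq kit. The authors deposited raw counts per gene without normalization. The submitters' processing notes name mm10, featureCounts and DESeq2 without versions. For the aligner, annotation release and strand setting the answer is not given in the sources used here. Exonic gene length in bases is another deposited column. Every one of the 21 libraries entered the fits.

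Genes were filtered with filterByExpr (minimum count 10, minimum total 15), scaled by TMM and tested with edgeR 4.0.16 (quasi-likelihood F test, two-sided, prior count 0.125) in R 4.3.3, with Benjamini-Hochberg adjustment over all genes and a threshold of 0.05. For comparisons of days and genotype by time, 18684 genes were fitted in the 18 original libraries, leaving 12 residual degrees of freedom. For ATLD against WT, 18844 genes were fitted in 21 libraries with a batch term, leaving 14. The second run of a culture is not an independent replicate, but this fit had no term for the culture and counted it as one. RPKM is TMM-scaled CPM per kilobase of deposited length. The fits were tested on simulated data. Every member is named. For the other lists, counts are given. The rule named the 2 called genes with the largest change in each direction per list and comparison, and Pycard, Casp1, Ifnb1, Irf7 and Irf9. Only some of the former are printed, and not every gene of the rule is reported here. Marker lists of 6 cell types were summed. The members and lists were chosen with earlier results of these data known. Alternatives were DESeq2 1.42.0, median-of-ratios scaling, no filter, the compared groups alone, each replicate left out, a replicate block, second runs in place of originals, no batch term, the second batch alone, voom (limma 3.58.1) with the culture as a random block, a GC offset and, added after seeing the data, 3 WT libraries left out.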

Additional observations from a re-analysis of the deposited data

Results flagged for a closer look

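The change since day 0 differed between the genotypes, by a test of the difference itself, for 4 of 8 tested members at each later day. Of all genes tested, 10.8% had a larger change in ATLD and 10.6% a smaller one at day 14. At day 28 these shares were 13.5% and 14%. The values of the members are the log2 change in ATLD minus that in WT. At day 14 they were -1.41 for Ifi202b, 1.16 for Ifi204, -2.06 for Ifi205 and 0.73 for Ifi211. At day 28 they were -2.08 for Ifi202b, 1.20 for Ifi204, -2.06 for Ifi205 and -2.16 for Aim2. The call of Ifi211 was lost in 10 of 12 fits that left out a library, and that of Aim2 in 1 of 12. For Ifi202b, Ifi205 and Aim2 the difference had the opposite sign to that of Ifi204 and Ifi211, genes of the same cluster.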

How the results depend on the processing

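Of 88 log2 changes of single members, 1277 values under alternatives were computed, and 1224 kept their side of the threshold. A call was lost in 41 and gained in 12, over 21 of the 88 changes. No called value changed sign, and the sign changed in 35 values that were called in neither fit. With the 3 WT libraries low in GC-rich genes left out, 1 library was left for WT day 14. The log2 changes of the 6 members called at WT day 14 against day 0 were then smaller, from 0.44 (Ifi211) to 3.24 (Ifi205). Over fits that left out a replicate, WT day 28 against day 14 had 0 to 1 members called. With a replicate block, 6 members were called at WT day 14, and the calls of Ifi202b in ATLD day 28 against day 0 (adjusted p = 0.057), Ifi211 in genotype by time at day 14 (adjusted p = 0.0688) and Mndal in ATLD against WT at day 0 (adjusted p = 0.084) were lost. Whether the replicate numbers pair the libraries was not settled. Of 45 same-numbered pairs from different groups, pairs across genotypes included, 10 had deviations correlated above 0.1, with a range of -0.605 to 0.238. Pairs of different numbers were not set beside them, so these values cannot decide it. Depth limits Ifi209, which was not tested, and Aim2, with 2 to 24 counts an original library.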
